A study of Mus musculus with 8 samples.

Results

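Bardet-Biedl syndrome is an inherited disorder of the primary cilium whose features include childhood obesity. Here its genes were followed in mouse brain cortex under normal and high fat diet. The set comprised 10 genes, Bbs1, Bbs2, Bbs4, Bbs5, Bbs7, Bbs9, Bbs10, Bbs12, Ttc8 and Arl6, chosen by name from the 13996 genes with deposited FPKM values, a read level scaled for transcript length and sequencing depth. All 10 were present, and all 10 were among the 13982 genes kept by a filter that required a mean of 1 FPKM or more and a value above 0 in each mouse. Male C57BL/6 mice were kept from the age of 8 weeks on conventional chow (normal mice) or on chow with 60% fat by weight (HFD mice), and cortex was taken from 4 mice of each diet at 16 weeks. All 8 mice shared strain, sex and age, the labels give no genetic change, and each library came from 1 mouse. Because whole cortex was sequenced, fewer cells of a type and less RNA per cell cannot be told apart. The libraries also differed in markers of brain regions. Summed FPKM of striatum markers was 238.8 to 440.1 in normal mice and 79.4 to 88.9 in HFD mice. For cerebellum markers it was 56.8 to 380.7 and 38.9 to 47.6, and for cortical excitatory neuron markers 292.1 to 442 and 487.2 to 577.3. The part of the striatum and cortical markers in the results was not tested.

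The primary cilium is a small antenna on most neurons and astrocytes that collects receptors for hormones and neuropeptides. The BBSome is a protein coat of several subunits that carries such receptors out of the cilium. Arl6, a small GTPase, recruits it to membranes, and the chaperonin-like proteins Bbs10, Bbs12 and Mkks, together with the general chaperonin CCT, are needed for its assembly. In hypothalamic neurons this machinery is known to affect leptin and melanocortin signaling.

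HFD mice had more RNA of 2 BBSome subunits, Bbs9 (33.4% higher) and Bbs1 (18.2% higher). None of the 10 genes passed the limma test in the lower direction (1 gene, Bbs5, at an unadjusted p below 0.05), and the other 8 had overlapping values between the diets. Of all genes tested, 33.1% passed the same threshold (17.7% higher and 15.3% lower), so that 2 of 10 is not a larger share than that of the background. Outside the set, 31 of 98 related ciliary genes passed (14 higher, 17 lower), 31.6% of those tested. The last BBSome subunit Bbip1, the chaperonin-like Mkks and all 8 measured CCT subunits were among the lower ones. With cerebellum markers as a covariate Bbs9 still passed, but Bbs1, Bbip1, Mkks and the 8 CCT subunits did not (6.59% of all genes passed). With ependymal markers as a covariate none of these genes passed (0.0501% of all genes). The call for Mkks also depended on single mice.

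The proximal promoters of 3 members are shown because 2 belong to the genes that rose and the third holds an X-box, the motif bound by RFX transcription factors that activate many ciliary genes. The stretches of Bbs9 and Bbs7 were chosen after the values were seen. All 3 were taken at RefSeq start sites on GRCm38.p6, which gave promoters for all 10 genes (250 bases before to 50 after the start). Only bases before the start that lie in no annotated exon of GENCODE M21 are printed. The search used the X-box arm GTTNCC on both strands and the full X-box, in which GTTNCC is followed after 2 bases by its reverse complement GGNAAC and which therefore holds 2 arms and reads the same on both strands. Capitals mark the full X-box in Bbs7, and in Bbs1 the 1 of its 2 arms that lies in the printed stretch, on the opposite strand. The Bbs9 stretch has no match and no capitals.
Bbs9 (plus strand, chr9:22475465-22475714): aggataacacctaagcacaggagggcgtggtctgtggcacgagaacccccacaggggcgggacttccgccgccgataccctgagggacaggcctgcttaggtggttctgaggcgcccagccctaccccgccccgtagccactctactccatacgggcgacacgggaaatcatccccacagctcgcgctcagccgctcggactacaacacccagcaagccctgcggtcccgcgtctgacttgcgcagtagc
Bbs1 (minus strand, chr19:4906629-4906877): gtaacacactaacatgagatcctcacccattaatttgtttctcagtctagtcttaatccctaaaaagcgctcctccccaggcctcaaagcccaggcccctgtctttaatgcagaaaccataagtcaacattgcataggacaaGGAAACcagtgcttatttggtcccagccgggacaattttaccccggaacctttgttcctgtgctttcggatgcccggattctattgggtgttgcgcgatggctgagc
Bbs7 (minus strand, chr3:36613478-36613639): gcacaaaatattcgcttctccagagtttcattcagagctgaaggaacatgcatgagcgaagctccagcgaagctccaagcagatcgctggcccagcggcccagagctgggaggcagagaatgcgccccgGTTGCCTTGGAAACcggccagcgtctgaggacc

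The full X-box was found in the promoter of 1 of the 10 genes, Bbs7, with its first base at position -121 from the start. It is present in 0.451% of the 32851 RefSeq promoters of the same length. The single arm was found in 5 of the 10 genes (Bbs1, Bbs4, Bbs5, Bbs7 and Bbs10) and in 45.3% of all promoters, which makes it a common word, and a match is not evidence of binding. Bbs9, with the largest difference between diets, had an exact match to neither in this window. Bbs7, with the full motif, was among the genes without a detectable difference. Other spacings and variants were not searched, so the lack of a match does not show that the motif is absent.

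Because FPKM is scaled by transcript length, the levels of the 10 RNAs can be compared roughly. The scaling does not account for overlaps with other genes, given below for Bbs4, Arl6 and Bbs12. The span of Bbs9 also holds opposite-strand processed pseudogenes, Gm2976 (513 bp), Gm16165 (795 bp) and Gm16164 (468 bp), and the small nuclear RNA gene Gm27639 (85 bp). That of Bbs1 holds the opposite-strand small nuclear RNA gene Gm25334 (110 bp). Bbs4 was the most abundant at a mean FPKM of 21.9 over the 8 mice, followed by Bbs9 (15.1), Arl6 (13.2), Bbs1 (9.66), Bbs5 (7.90), Bbs2 (7.86), Ttc8 (7.59) and Bbs7 (6.53). The chaperonin-like Bbs10 (2.39) and Bbs12 (2.21) were the lowest. The range of Bbs4 lay above that of Bbs9, and that of Bbs7 above that of Bbs10, but all other neighbors in this order overlapped over the 8 mice. Between Bbs9 and Arl6 the order itself turned with the diet. Arl6 was above Bbs9 in 4 of 4 normal mice and below it in 4 of 4 HFD mice. Because FPKM values are rounded to 0.1, a step of rounding is a larger part of the value for Bbs10 and Bbs12 than for Bbs4.

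**Figure D1:**
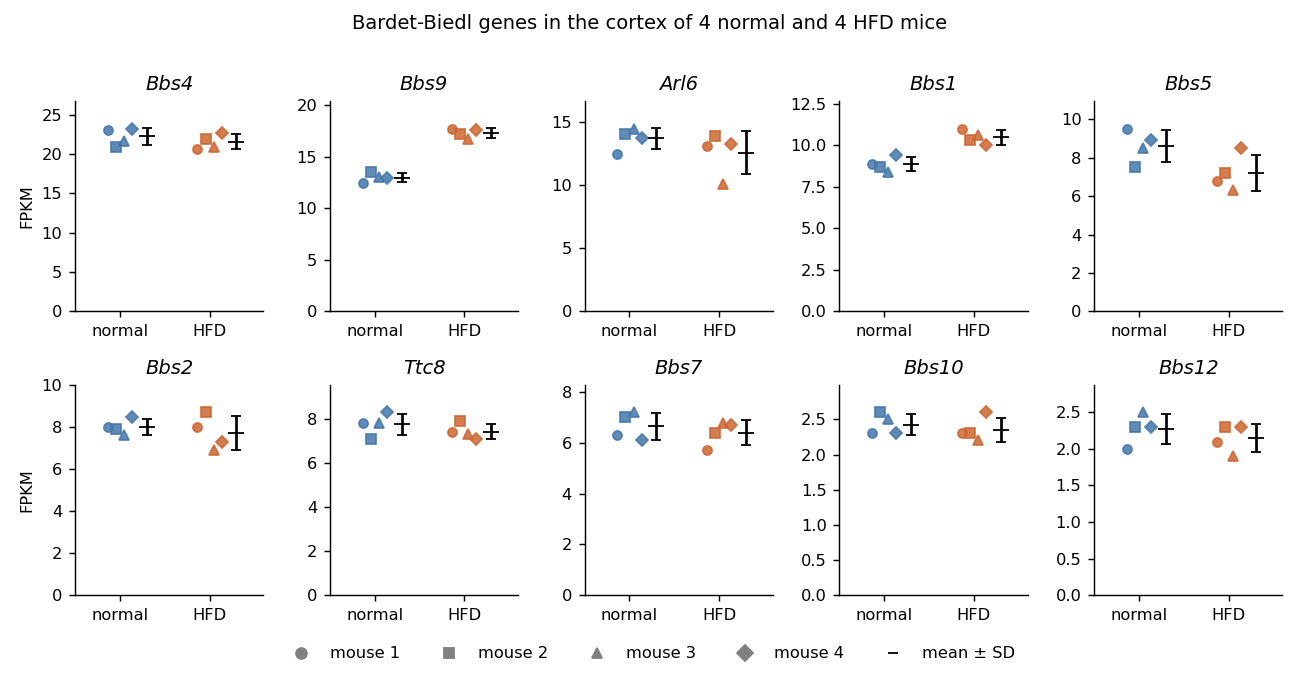
FPKM of each of the 10 genes (y axis, starting at 0) in the normal and the HFD mice (4 of each), ordered by mean level, with 1 symbol per mouse and the mean ± SD beside them. The diets separate for Bbs9 and Bbs1 and overlap for the other 8 genes.

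Bbs9 belongs to the core of the BBSome, in which it binds the related subunits Bbs2 and Bbs7. Its gene (ENSMUSG00000035919.16) is found at 22475715 to 22888280 of chromosome 9 in GRCm38 (plus strand), and its longest coding transcript joins 22 exons into 3495 bases. Its FPKM was 12.4, 13.5, 13.0 and 12.9 in normal mice 1 to 4 and 17.7, 17.2, 16.7 and 17.6 in HFD mice 1 to 4. Every HFD mouse was above every normal mouse, with a gap of 3.2 FPKM between the groups and a spread within each diet of only 0.451 and 0.455 (SD, n = 4). The mean rose from 12.95 to 17.3, a log2 fold change of 0.42 on the log2(FPKM + 0.1) scale (standard error, SE, 0.05, 95% interval 0.31 to 0.52, limma adjusted p = 0.000744 over all genes tested). By p it ranked 116 of 13982 genes.

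Bbs1 is the subunit through which Arl6 binds the BBSome. It (ENSMUSG00000006464.8) lies on the minus strand of chromosome 19 from 4886878 to 4906628 in GENCODE M21, whose model carries a later version number than that of the deposited values. The FPKM was 8.9, 8.7, 8.4 and 9.4 in normal mice 1 to 4 and 11, 10.3, 10.6 and 10 in HFD mice 1 to 4. Here too the diets did not overlap, but the gap was 0.6 FPKM. The log2 fold change was 0.24 (SE 0.06, 95% interval 0.11 to 0.37, limma adjusted p = 0.0113). Values without overlap between the diets, as in these 2 of 10 genes, were found for 31.9% of all genes tested (17.2% higher, 14.7% lower). Neither Bbs9 nor Bbs1 changed by over 50%, while 7.13% of genes tested did so and passed the adjusted threshold.

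**Figure D2:**
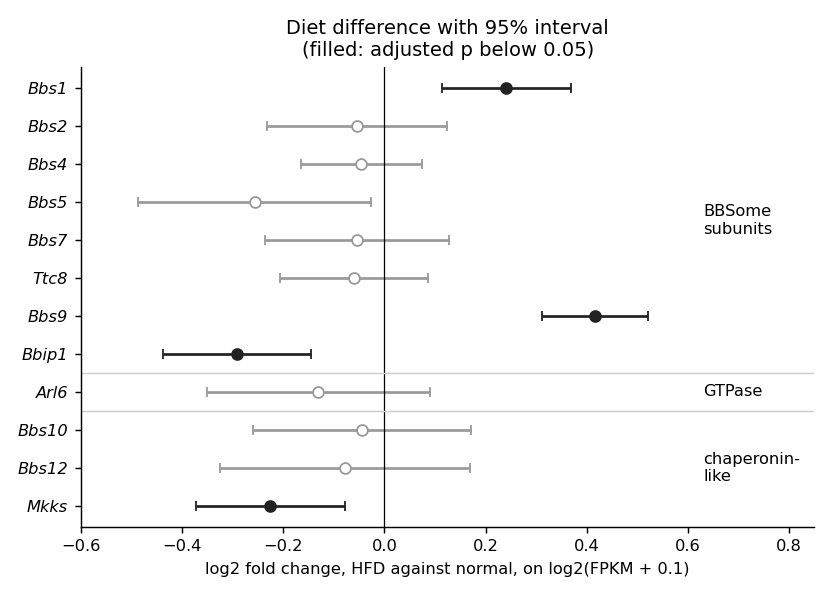
Log2 fold change of HFD against normal mice (x axis, log2(FPKM + 0.1) scale) with its 95% interval from limma, for the 10 genes and for Bbip1 and Mkks, grouped by role. Bbs9 and Bbs1 lie to the right of 0, Bbip1 and Mkks to the left, and the open symbols did not pass the adjusted threshold.

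Bbs5, a subunit that binds membrane phosphoinositides (chromosome 2, 69647171 to 69667571, plus strand), had the largest difference in the lower direction but missed the adjusted threshold. It was 9.5, 7.5, 8.5 and 8.9 FPKM in normal mice and 6.8, 7.2, 6.3 and 8.5 in HFD mice. HFD mouse 4 reached the level of normal mouse 3, and normal mouse 2 lay close to the HFD mice. The log2 fold change was -0.26 (SE 0.10, limma adjusted p = 0.0815). At an unadjusted p below 0.05 Bbs5 would be the 1 gene of 10 counted as lower. Without HFD mouse 4 the log2 fold change was -0.34 and the limma adjusted p = 0.0268, the 1 of 19 alternatives in which Bbs5 passed. Without normal mouse 2 it was -0.32 and the limma adjusted p = 0.0518. HFD mouse 4 also stood apart from its diet in the summed FPKM of choroid plexus markers (945.6 against 21.4 to 77.3 in the other HFD mice and 344.8 to 731.8 in normal mice), whose part in the Bbs5 value was not tested.

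The remaining BBSome subunits overlapped between diets. Bbs4, a subunit with tetratricopeptide repeats (chromosome 9, 59321990 to 59353508, minus strand), ranged from 20.9 to 23.2 FPKM in normal and from 20.6 to 22.7 in HFD mice. Its difference was estimated at -3.11% with a 95% interval from -10.8% to 5.21%. Ttc8, another subunit with such repeats (chromosome 12, 98920574 to 98983238, plus strand), ranged from 7.1 to 8.3 and from 7.1 to 7.9. Its interval of -13.3% to 6.20% also includes 0. Bbs4 overlaps the opposite-strand gene Adpgk by 2063 bp, and the sources used here do not say if reads were assigned by strand.

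Bbs2 and Bbs7, the partners of Bbs9 in the core, did not pass the test. The FPKM of Bbs2 (chromosome 8, 94067954 to 94098928, minus strand) lay within 7.6 to 8.5 under normal diet and 6.9 to 8.7 under HFD, and Bbs7 (chromosome 3, 36573142 to 36613477, minus strand) within 6.1 to 7.2 and 5.7 to 6.8. The 95% interval of the difference was -14.8% to 8.89% for Bbs2 and -15.1% to 9.29% for Bbs7, beside 24.0% to 43.4% for Bbs9. The ratio of Bbs9 to Bbs2 FPKM was 1.62 ± 0.102 in normal mice and 2.26 ± 0.209 in HFD mice (SD, n = 4), and that of Bbs9 to Bbs7 was 1.95 ± 0.127 and 2.72 ± 0.276. These ratios were formed after the rise of Bbs9 was known, and no test is attached to them.

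Summed over the 7 subunits of the set, BBSome RNA amounted to 72.6 to 77.3 FPKM in normal mice and 75.5 to 79.9 in HFD mice. The sums overlapped, while the make-up shifted. Bbs9 took 17.3% ± 1.01 of the sum in normal mice and 22.2% ± 0.551 in HFD mice, and Bbs1 took 11.8% ± 0.366 and 13.4% ± 0.840 (SD, n = 4). Bbs4 took 29.6% ± 0.727 and 27.6% ± 0.709, though its own FPKM did not differ detectably.

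**Figure D3:**
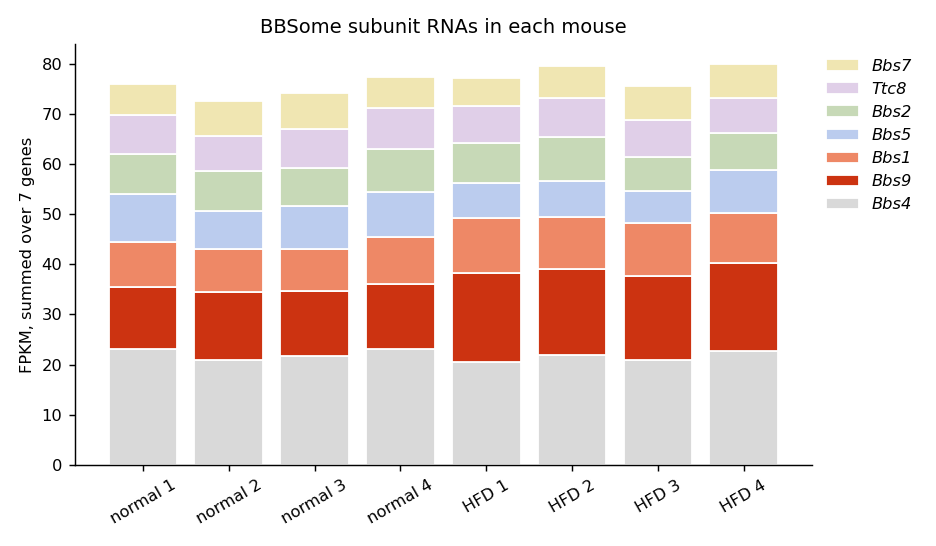
Stacked FPKM of the 7 BBSome subunits (y axis, starting at 0) in each of the 8 mice. The height differs little between mice, from 72.6 to 79.9, while the red band of Bbs9 is wider in each HFD mouse.

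Arl6, the GTPase that brings the BBSome to the membrane (chromosome 16, 59612949 to 59639391, minus strand), was 12.5, 14.1, 14.5 and 13.8 FPKM in normal mice and 13.1, 13.9, 10.1 and 13.3 in HFD mice. HFD mouse 3 stood below the other 7 mice. The log2 fold change was -0.13 (SE 0.10, limma adjusted p = 0.330), and without that mouse it was -0.03. The opposite-strand transcript 4930547E14Rik overlaps Arl6 by 2447 bp.

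The chaperonin-like genes were the least abundant of the set. Bbs10 (chromosome 10, 111298679 to 111301727, plus strand) ranged from 2.3 to 2.6 FPKM in normal and from 2.2 to 2.6 in HFD mice. Bbs12 (chromosome 3, 37312554 to 37321453, plus strand) ranged from 2.0 to 2.5 and from 1.9 to 2.3. Both have 2 exons in their longest coding transcript. The intervals of their differences, -16.5% to 12.7% and -20.2% to 12.5%, were wider than that of Bbs4. Bbs12 shares 155 bp with the opposite-strand centrin gene Cetn4, and the same-strand transcript Gm43439 spans its whole length, which makes the assignment of its reads uncertain.

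HFD mouse 3 had the lowest value of its diet for 6 of the 10 genes, counting ties, against 0 to 2 for the other mice of that diet. In normal mice the lowest values were spread over the 4 mice, with 2 to 4 genes each.

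Other proteins of the same machinery were examined in lists of related genes. Of 104 genes listed, 98 were tested, of which 14 were higher and 17 lower in HFD mice, 31.6% in all against 33.1% of all genes tested. Their median log2 fold change was -0.04, beside 0.00 for all genes. The list of other BBSome subunits, chaperonins and regulators had 8 genes, 3 of them lower and 0 higher (0 higher also at an unadjusted p below 0.05), with a median of -0.14.

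Bbip1, a small BBSome subunit, was 12.6, 12.7, 10.7 and 11.2 FPKM in normal mice and 9.7, 9.6, 9.4 and 9.7 in HFD mice. All HFD mice were lower, and they hardly differed among themselves. It decreased with a log2 fold change of -0.29 (SE 0.07, limma adjusted p = 0.00927), in the opposite direction to Bbs9 and Bbs1. Mkks, the third chaperonin-like gene, was 7.5, 7.7, 7.3 and 7.0 in normal mice and 6.0, 6.7, 5.9 and 6.6 in HFD mice. It decreased with a log2 fold change of -0.23 (SE 0.07, limma adjusted p = 0.0275), while Bbs10 and Bbs12 were at -0.04 and -0.08 and did not pass. The call for Mkks was lost when normal mouse 1, 2 or 3 or HFD mouse 1 or 3 was left out (limma adjusted p = 0.0527 to 0.0733). Ccdc28b, a modifier of the syndrome, decreased from 22.0 ± 3.03 to 15.0 ± 1.61 (SD, n = 4, limma adjusted p = 0.00503). Lztfl1, which restrains ciliary entry of the BBSome, overlapped between diets (12 to 13.2 and 11.7 to 14.5).

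The general chaperonin CCT, a ring complex that folds actin and tubulin, was lower in all of its 8 subunits. The log2 fold changes lay between -0.28 for Cct6a and -0.18 for Cct2, with a median of -0.24, and 8 of 8 passed where 15.3% of all genes did so in this direction (7 of 8 with the replicate number as a block, where 24.2% of all genes passed in either direction). Cct4 was 51.3, 56.2, 52.1 and 51.0 FPKM in normal mice and 43.7, 41.1, 42.5 and 46.2 in HFD mice, a log2 fold change of -0.28 (SE 0.05, limma adjusted p = 0.00387). The other subunits with the smallest p were Cct6a, Tcp1 and Cct5, with mean FPKM falling from 65.2 to 53.6, from 97.4 to 85.4 and from 102 to 85. For 8 of 8 subunits the values did not overlap between the diets, beside 14.7% of all genes without overlap and lower in HFD mice. The subunits are stronger in level than any gene of the set and changed by less than Bbs9.

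**Figure D4:**
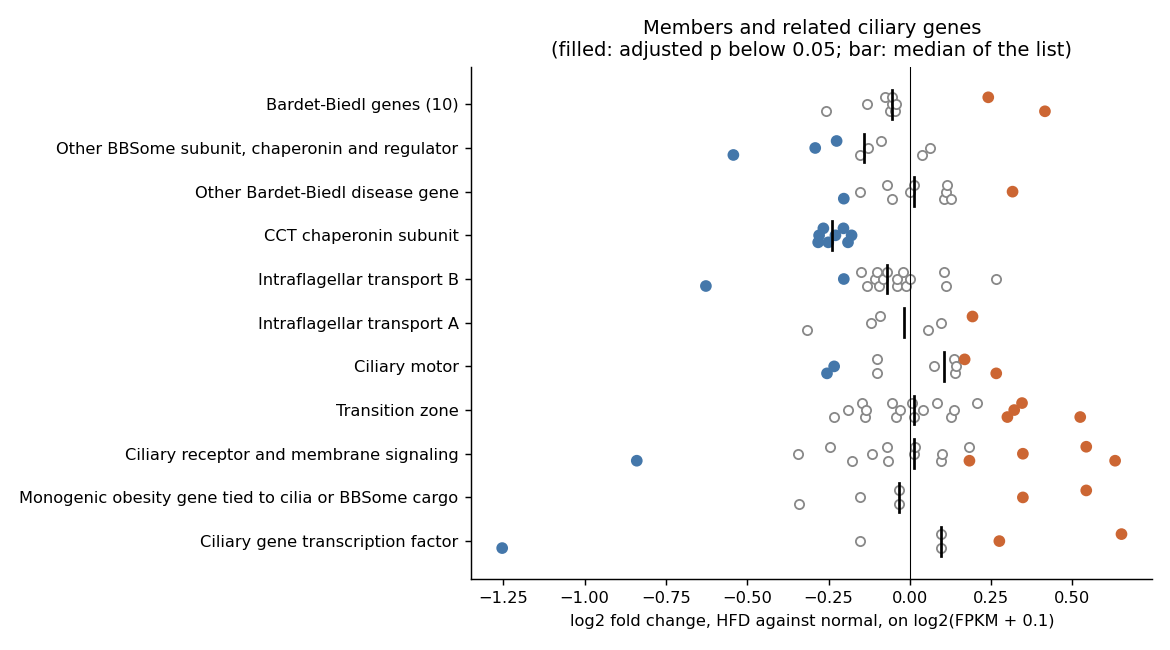
Log2 fold changes (x axis, log2(FPKM + 0.1) scale) of the 10 genes and of each list of related ciliary genes, 1 circle per gene, filled in orange (higher) or blue (lower) where the adjusted p was below 0.05, with a bar at the median. All 8 CCT subunits lie between -0.28 and -0.18, whereas most other lists scatter around 0.

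Intraflagellar transport moves cargo, including the BBSome, along the cilium. Of 17 genes of its B complex tested, 2 were lower, Ift74 (log2 fold change -0.20) and Hspb11 (-0.63, with overlapping diets), and 0 higher (1 higher at an unadjusted p below 0.05). Of 6 genes of its A complex 1 was higher, Ift122 (0.19, with overlapping diets), and 0 lower (2 at an unadjusted p below 0.05). Among 10 ciliary motor genes Dync2h1 (0.27) and Kif3a (0.17) were higher and Tctex1d2 (-0.25) and Dync2li1 (-0.23) lower, so that the heavy chain of the retrograde dynein and 2 of its smaller chains moved in opposite directions. At the transition zone, the gate at the base of the cilium, 4 of 19 genes were higher (Nphp4, Ahi1, Tctn2 and Tctn3, log2 fold changes 0.52, 0.34, 0.30 and 0.32) and 0 lower (1 at an unadjusted p below 0.05). The values of Tctn3 overlapped between the diets. Among 11 other disease genes of the syndrome, Sdccag8 was higher (0.32) and Ift74 lower, with a gap of 0.1 FPKM between the diets for Ift74. In the order given, 11.8%, 16.7%, 40%, 21.1% and 18.2% of these lists passed, beside 33.1% of all genes tested. The 21.1% of the transition zone, all higher, stands beside 17.7% of all genes in that direction.

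Ciliary receptors and membrane signaling genes, among which are cargoes of the BBSome, had 4 of 16 genes higher and 1 lower. These were 31.2% of the list, beside 33.1% of all genes tested. Tub, whose loss causes obesity in mice and which delivers receptors into cilia, was 35.8, 35.8, 32.3 and 38.1 FPKM in normal mice and 53.6, 51.3, 49.7 and 52.1 in HFD mice. It rose with a log2 fold change of 0.54 (SE 0.05, limma adjusted p = 0.000506), more than Bbs9. Adcy3, the adenylyl cyclase of neuronal cilia and also an obesity gene, rose from 13.8 ± 0.606 to 17.6 ± 0.340 (SD, n = 4, limma adjusted p = 0.00129). Gpr161 rose with a wide spread among HFD mice (6.2 to 11.1 FPKM). The neuropeptide Y receptor gene Npy2r, a BBSome cargo, decreased with a log2 fold change of -0.84 (SE 0.20, limma adjusted p = 0.0116). Its values nearly met, at 1.5 to 3.1 FPKM in HFD mice and 3.2 to 4.1 in normal mice. Of 6 obesity genes tied to cilia or BBSome cargo, Tub and Adcy3 were higher (33.3%) and 4, among them Lepr and Alms1, did not pass.

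Of 6 transcription factors of ciliary genes, Rfx1 rose from 3.58 ± 0.0957 to 5.68 ± 0.330 FPKM (SD, n = 4, log2 fold change 0.65, limma adjusted p = 0.00063). Rfx7 rose by 0.28 on the log2 scale, with overlapping diets. Foxj1, the regulator of motile cilia, decreased with a log2 fold change of -1.25 (SE 0.20, limma adjusted p = 0.00221). In all, 50% of this short list passed, beside 33.1% of all genes tested.

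Markers of other cells and regions differed between the diets beside the results above, and their part in them was not tested beyond the fits given here. Of 9 ependymal and motile cilia markers tested, 7 were lower (Foxj1 among them), and their summed FPKM was 23.2 to 39.2 in normal mice and 10.7 to 18.8 in HFD mice. Of 9 cerebellum markers tested 6 were lower. The summed FPKM of the 10 with deposited values (the tenth, Gabra6, was 0 in 1 mouse and not tested) was 56.8, 285, 381 and 112 in normal mice 1 to 4 and 38.9 to 47.6 in HFD mice, although the libraries are labelled as cortex. Striatum markers (9 of 9), myelin markers (8 of 8) and blood markers (5 of 5) were lower, beside 15.3% of all genes tested. Of markers of cortical excitatory neurons 7 of 9 were higher, beside 17.7%. The summed FPKM of the striatum markers was 238.8 to 440.1 in normal mice and 79.4 to 88.9 in HFD mice, without overlap. That of the cortical excitatory markers was 292.1 to 442 and 487.2 to 577.3. No fit included either list as a covariate, so their part in the results was not tested. Of the other lists, choroid plexus had 3 of 7 lower, thalamus 2 of 6 lower, interneurons 2 higher and 5 lower of 8, astrocytes 1 higher and 3 lower of 8, endothelium 1 higher and 2 lower of 8, and microglia 0 of 7 in either direction by limma (1 higher at an unadjusted p below 0.05).

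With the mean level of the cerebellum markers as a covariate, Bbs9 was at 0.48 (limma adjusted p = 0.0120) and Bbs1 at 0.17 (SE 0.09, adjusted p = 0.264). Without normal mice 2 and 3, the 2 with the most cerebellar RNA, Bbs9 was at 0.45 (adjusted p = 0.0039) and Bbs1 at 0.19 (adjusted p = 0.0766, all from limma), so that the call for Bbs1 was lost and that for Bbs9 kept. With the ependymal markers as a covariate Bbs9 stayed at 0.42, but its standard error rose to 0.10 and its adjusted p to 0.228, and Bbs1 was at 0.08 (adjusted p = 0.830, both from limma). Of all genes tested, 33.1% passed without these changes, 6.59% with the cerebellum covariate, 19.7% without the 2 mice and 0.0501% with the ependymal covariate, so that far fewer calls were made in general. The log2 fold changes of the 8 CCT subunits were below 0 in each of these 3 fits, with 0, 6 and 0 of them past the adjusted threshold in that order. Cct4 was at -0.22, -0.24 and -0.19. Bbip1 was at -0.37 (adjusted p = 0.0639), -0.30 (adjusted p = 0.0200) and -0.31 (adjusted p = 0.425, all from limma) in the same order. Mkks was at -0.20, -0.20 and -0.14 and did not pass in any of the 3, and Tub passed in the first 2, at 0.46 and 0.48. Rfx1 passed in the first 2 and was at 0.66, 0.66 and 0.64. Adcy3 passed only without the 2 mice and was at 0.27, 0.30 and 0.23. Ccdc28b also passed only without the 2 mice, at -0.25, -0.38 and -0.55, so that its difference was over 1.5 times smaller with the cerebellum covariate. Foxj1 was at -0.81 with the cerebellum covariate (limma adjusted p = 0.104) and -0.95 without the 2 mice (limma adjusted p = 0.0152), and since it is itself part of the ependymal covariate its value in that fit is not informative.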

How the data were processed

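The authors trimmed reads of stranded, rRNA-depleted libraries with Trimmomatic after FastQC, aligned them to mm10 with STAR and deposited FPKM values per mouse from Cuffnorm on GENCODE M17 (GRCm38.p6). The sources used here name no versions. The values were rounded to 0.1 FPKM, and as they carry no read counts the depth behind them is unknown and no counting interval is given. Sums of FPKM ranged from 562431 to 639142 per mouse.

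Values as log2(FPKM + 0.1) were compared between the 2 diets (4 mice each) with limma 3.58.1 in R 4.3.3 (variance trend, two-sided, Benjamini-Hochberg adjustment over 13982 genes, threshold 0.05), in place of the gene-by-gene test of the study. Whether the mice of a diet came from separate cages or litters is not stated, so p-values measure the spread between these mice. The fit was tested on simulated data. Gene positions were read from GENCODE M21 (GRCm38), where 13977 of 13996 IDs were found. Tables and figures used Python 3.11.15, pandas 2.3.3, numpy 2.4.6, scipy 1.17.1 and matplotlib 3.10.9. The genes, the lists and the tests were chosen with earlier results of these data known, among them the values of Bbs9 and Bbs1. All 10 genes were named, and of each related list the genes with the smallest p, up to 4, with further genes of the lists chosen after their values were seen. Alternatives were the added constant, the filter, rescaling, the variance trend, a replicate block, marker covariates, the minimum change and each mouse left out. Removing normal mice 2 and 3 together was chosen after seeing the data.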

Additional observations from a re-analysis of the deposited data

Results flagged for a closer look

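Among the 41 genes examined for single mice that stood apart (the 10 genes and the related genes past the adjusted threshold), 82 groups of 4 mice were checked by Dixon's ratio of the gap to the range, and 2 exceeded its 95% critical value. Chance flags about 1 in 20 groups. Ift74 was 10.7 FPKM in normal mouse 1 and 11.3 to 11.4 in the other normal mice (ratio 0.857). Kif3a was 55.2 FPKM in HFD mouse 3 and 61.1 to 62.2 in the others (ratio 0.843). None of the 10 Bardet-Biedl genes was flagged in either diet.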

How the results depend on the processing

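The count of 2 genes past the threshold, both higher, was the same with either other added constant, without the filter or with a mean FPKM of at least 5 (which removes Bbs10 and Bbs12), with median-ratio or quantile scaling and without the variance trend. In these fits 30.5% to 38.1% of all genes passed. The count was 1 with the cerebellum covariate (6.59% of all genes passed), 1 without normal mice 2 and 3 together (19.7%) and 0 with the ependymal covariate (0.0501%). It was also 0 when a change over 50% was required as well (7.13%). With each mouse left out in turn it was 2 to 3, with 0 to 1 lower. Bbs9 passed in 18 of 19 alternative fits (log2 fold change 0.39 to 0.48, adjusted p = 0.000589 to 0.228 from limma) and Bbs1 in 16 of 19 (0.08 to 0.27, adjusted p = 0.00915 to 0.830). The minimum change, which neither gene met, is not counted among the 19. Genes without a detectable difference changed sign in some fits. With the cerebellum covariate Bbs7, Arl6, Bbs10 and Bbs12 were at 0.10, 0.0342, 0.0797 and 0.12, with the ependymal covariate Bbs7 and Bbs10 were at 0.29 and 0.12, and without normal mice 2 and 3 they were at 0.0420 and 0.0271. The cause was not tested. Of the 31 related genes past the threshold (14 higher, 17 lower), the count was 4 of 98 with the cerebellum covariate (3 higher, 1 lower) and 0 with the ependymal covariate (0 higher, 0 lower), beside those same shares of all genes, and the count of higher genes was 9 without normal mice 2 and 3. With each mouse left out the counts were 23 to 30, 9 to 14 of them higher, where 23.6% to 33.1% of all genes passed. The lowest counts of higher genes came without normal mouse 2 or HFD mouse 2 (9 each). In both of these fits 23.6% of all genes passed, the lowest share with a mouse left out, so calls were fewer in general.

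The mice share only a replicate number. Deviations from the diet means of same-numbered mice correlated at -0.0382, -0.0275, -0.109 and -0.0717 across genes, and no mouse correlated best with its own number. With the replicate number as a block 24.2% of all genes passed in place of 33.1%, Bbs9 and Bbs1 were still the 2 genes called, and 9 related genes were higher in place of 14, while Mkks (limma adjusted p = 0.0620) and 1 of the 8 CCT subunits were lost. Depth is unknown, and the rounding to 0.1 FPKM limits Bbs10 and Bbs12 most.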

Other observations

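Sstr3 and Mchr1, receptors that reside in neuronal cilia, showed no detectable difference, while the ciliary genes Tub and Adcy3 rose. Other receptors of the same list did differ, Npy2r at a log2 fold change of -0.84 and Gpr161 at 0.63. Sstr3, a somatostatin receptor, was 9, 7, 7.3 and 10.1 FPKM in normal mice and 8.8, 9, 9.1 and 8.5 in HFD mice. Mchr1, the receptor of melanin-concentrating hormone, was 9.4, 7.7, 8.2 and 10.1 in normal mice and 8.8, 9.2, 9.1 and 8.4 in HFD mice. Both were lowest in normal mice 2 and 3, the mice with the highest cerebellum markers, and the part of that RNA in these values was not tested. The leptin receptor Lepr, from the list of obesity genes, was 1.3 to 1.6 FPKM in normal mice and 1.1 to 1.6 in HFD mice. It did not pass either and was close to the lower limit of the filter. These 3 genes were chosen after their values were seen.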
